A study of Mus musculus with 18 samples.

Results

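The mouse T cell receptor beta locus (Tcrb) was examined in CUT&RUN peak lists of cohesin and CTCF from sorted DP thymocytes. The locus was taken as chromosome 6 from 40.8 to 41.65 Mb in mm10, which spans 850 kb, and every peak of the 7 analysed lists with its summit there was kept. This gave 191 peaks of the 207027 on the standard chromosomes. The groups were Satb1 KO and WT, both from primary thymus and both given tamoxifen, and the labels call the deletion tamoxifen-induced without naming the Cre driver. In each genotype an antibody to SMC1A, a core subunit of the cohesin ring that extrudes chromatin loops, or to CTCF, the zinc finger protein at which cohesin often halts, directed a nuclease to chromatin (CUT&RUN). The lists analysed were 2 KO and 2 WT lists for SMC1A, and 2 KO lists and 1 WT list for CTCF. Of the 18 samples, 7 were used. Not analysed here were a second WT CTCF sample and those for H3K27ac, IgG and input.

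The Tcrb locus carries an array of variable (V) segments, then trypsinogen genes, then paired clusters of diversity (D), joining (J) and constant (C) segments, the enhancer Eβ and the inverted segment Trbv31. Recombination by RAG joins a D to a J segment and then a V segment to that DJ join, and locus contraction by loops brings distant V segments near the D-J-C part. These joins are made before the DP stage and delete the DNA between the joined segments on most rearranged alleles, so DP cells carry unequal numbers of copies along the locus. Copy number was not measured, and fewer copies of a stretch cannot be told apart from less protein bound to it. SATB1, a protein that folds chromatin, is highly expressed in thymocytes. A peak list measures neither the Satb1 deletion nor the surface markers of DP cells, so neither label could be checked here.

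The depth of the libraries is unknown from peak lists. A proxy, the lowest 1% of the local backgrounds implied by the caller's statistics, was 0.633 and 0.384 reads in the KO SMC1A libraries and 0.533 and 0.465 reads in the WT SMC1A libraries. It was 1.82 and 3.28 reads in the KO CTCF libraries and 1.02 reads in the WT CTCF library, so KO CTCF replicate 2 had the highest background of the 7. Whole lists held 28151 and 20689 peaks for KO SMC1A against 19882 and 20638 for WT SMC1A, and 55750 and 22928 for KO CTCF against 38989 for WT CTCF. The labels do not say that replicates were separate animals, and the p-values cover the spread between libraries, which can be technical alone. Fold enrichments at summits and −log10 q values are the authors' own and rank peaks only within a list.

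The locus held 26 and 21 SMC1A peaks in the KO lists and 20 and 15 in the WT lists. Relative to list length these were 0.924 and 1.02 peaks per 1000 in KO and 1.01 and 0.727 per 1000 in WT, so the genotypes overlapped. The means were 0.969 ± 0.0647 in KO and 0.866 ± 0.197 in WT (SD, n = 2 each), and an exact two-sided permutation test gave p = 0.667, where the smallest p that 2 against 2 allows is 1 in 3. The locus was also 1 of 1364 windows of 850 kb tested with limma. Its log2 density difference, KO minus WT, was 0.17 ± 0.17 (SE; limma adjusted p = 0.673). By the same test 57 windows (4.18%) were denser in KO and 23 (1.69%) were sparser, and the Tcrb window was in neither set. The direction was not stable: in batch 1 the difference was -0.0823 peaks per 1000, in batch 2 it was 0.288, and without WT replicate 2 the log2 difference was -0.06. For CTCF the locus held 53 and 22 peaks in the KO lists and 34 in the WT list, which is 0.951 and 0.960 per 1000 in KO and 0.872 per 1000 in WT.

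**Figure D1:**
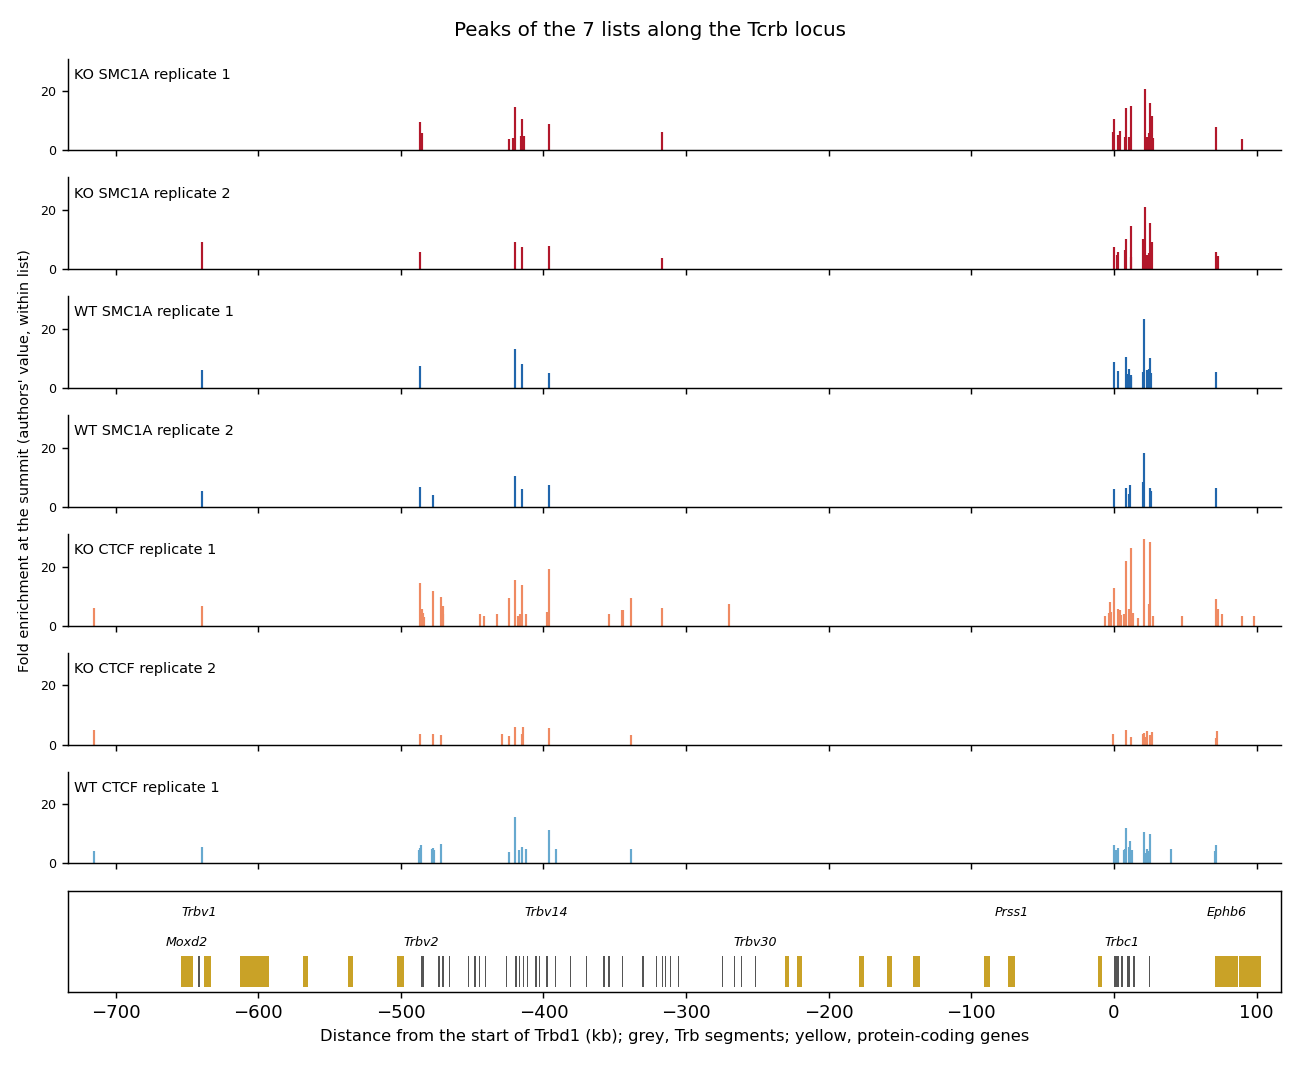
Position (kb from the start of Trbd1) of every Tcrb peak in the 7 lists, with the authors' fold enrichment at the summit as the height of each line, above a track of Trb segments and protein-coding genes. Peaks gather at the D-J-C part and enhancer end and on the Trbv2 side of the V array, and a stretch of 263 kb between them is empty in every list.

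Peaks were concentrated at the 3′ end. The RefSeq table of the build placed Trbd1 at 41533201 to 41533212, Trbc1 at 41538219 to 41539665, Trbd2 at 41542163 to 41542176, Trbc2 at 41546730 to 41548181 and Trbv31 at 41557693 to 41558371. The stretch of 35.2 kb from 5 kb before Trbd1 to 5 kb past Trbv31 is 4.14% of the locus. It held 14 of 26 and 13 of 21 of the KO SMC1A peaks (53.8% and 61.9%; 95% Wilson intervals 35.5 to 71.2% and 40.9 to 79.2%). In WT it held 14 of 20 and 8 of 15 SMC1A peaks (70.0% and 53.3%; 48.1 to 85.5% and 30.1 to 75.2%). These shares overlapped between the genotypes. Of the CTCF peaks it held 32.1% and 40.9% in the KO lists and 41.2% in the WT list. Here and elsewhere the intervals cover counting error only.

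Along the locus, the KO and WT counts of SMC1A peaks overlapped or met in most sectors. The D-J-C part, 15.0 kb from Trbd1 to the end of Trbc2, held 6 and 6 SMC1A peaks in KO against 7 and 3 in WT. The enhancer end, 10.2 kb from there to the end of Trbv31, held 3 and 4 in KO against 4 and 2 in WT. The V array from Trbv2 to Trbv30 is 234 kb long and held 9 and 4 SMC1A peaks in KO against 3 and 4 in WT. The 156 kb interval from Trbv1 to Trbv2 held 1 and 2 in KO against 2 and 2 in WT. The 3′ flank is the 91.6 kb past Trbv31 that hold Ephb6 and the calcium channel gene Trpv6. There the KO lists held 5 and 4 SMC1A peaks and the WT lists 3 and 3. These counts did not overlap, but they were not tested and no share of such sectors across the genome was counted. Overlapping SMC1A peaks joined into 6 regions in the flank. Of these, 3 were in a single list and 0 were in both KO lists but neither WT list. The V array gave the widest range for CTCF, with 25 and 9 peaks in the KO lists and 12 in the WT list, so the KO replicates lay on either side of WT.

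**Figure D2:**
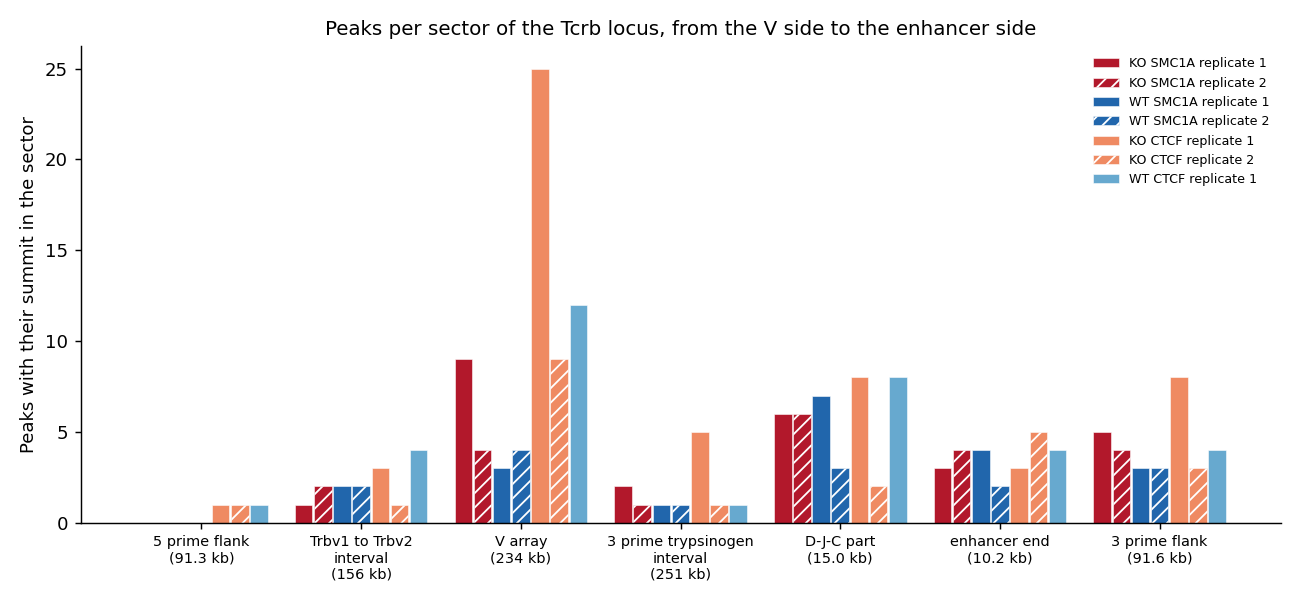
Number of peaks with their summit in each sector of the locus (bars, 1 per list; sector length in kb under the axis). The D-J-C part holds 6 and 6 SMC1A peaks in KO and 7 and 3 in WT within 15.0 kb, and KO CTCF replicate 1 stands out in the V array with 25 peaks.

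The constant genes themselves carried almost no peaks. Trbc1 and Trbc2 encode the alternative constant domains of the receptor beta chain. No SMC1A peak of any list overlapped either gene. For Trbc1 the nearest SMC1A summit lay 747 and 1244 bp away in the KO lists and 2210 and 2168 bp away in the WT lists. For Trbc2 it lay 1876 and 1212 bp away in KO and 1279 and 2099 bp away in WT. KO CTCF replicate 1 held 1 peak over each gene, at 41538252 to 41538642 over Trbc1 and at 41546261 to 41547121 over the edge of Trbc2, while KO CTCF replicate 2 and the WT CTCF list held none. Within 5 kb of Trbc1 there were 5 and 4 SMC1A peaks in the KO lists and 5 and 3 in the WT lists. Within 5 kb of Trbc2 the counts were 3 and 3 in KO and 6 and 3 in WT.

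The 4 SMC1A lists merged into 32 regions at the locus, of which 11 (34.4%) were in all 4 lists, beside 35.0% of 35221 regions across the genome. None of the 13 regions held by both WT lists was missing from both KO lists, where the share lost across the genome was 4.15% of 14846. Of the 15 regions held by both KO lists, 2 (13.3%) were in neither WT list, and the share gained across the genome was 13.1% of 17319. Both counts are near the background. With lists cut to equal length, 0 regions were gained and 1 was lost, the lost one lying in the J2 cluster at 41543119 to 41543604. Without KO replicate 2, 12 regions were gained, without KO replicate 1 the number was 4, and 1 region was lost whichever SMC1A list was left out. A further 14 regions were in a single list, 10 of them in KO replicate 1, the longest SMC1A list.

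The strongest region lay at the enhancer end, between Trbc2 and Trbv31, at 41553240 to 41555661. Its highest summit had a fold enrichment of 20.6 and 21.0 in the KO lists and 23.2 and 18.3 in the WT lists. The −log10 q values were 78.1 and 51.9 in KO and 65.2 and 43.6 in WT. It ranked first at the locus in all 4 lists and within the top 1.97% and 1.96% of the KO lists and the top 2.65% and 4.26% of the WT lists. In KO replicate 1 it was a single peak of 1899 bp, and in the other SMC1A lists it was split into a larger peak and a smaller one on its Trbc2 side. CTCF was called there in all 3 CTCF lists. KO CTCF replicate 1 had a single peak of 3320 bp with a fold of 29.5 and a −log10 q of 230. KO CTCF replicate 2 had 3 short peaks with folds of 2.69 to 3.88. The WT CTCF list had 2 peaks there. The larger had a fold of 10.8 and a −log10 q of 30.4, and the smaller had a fold of 3.48 and a −log10 q of 2.89. No enhancer annotation was used here, so the place of Eβ relative to the region was not measured.

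The SMC1A summit in that region lay nearer to Trbv31 in both KO lists. The summits were at 41554811 and 41554782 in KO and at 41554541 and 41554573 in WT, so the groups did not overlap and were 209 bp apart at their closest. CTCF summits were at 41554633 in KO replicate 1 and at 41554544 for the larger WT peak. The smaller WT CTCF peak had its summit at 41555133. The short peaks in KO CTCF replicate 2 had summits at 41553468, 41554221 and 41554704, and the one at 41554221 was the strongest by −log10 q. This feature was chosen after its values were seen. Of the 11 shared regions, 5 (45.5%) had KO and WT summits that did not overlap, beside 34.4% of 12326 regions across the genome. A distance over 200 bp was found at this region alone among the 11, beside 1.03% of the 12326. Among the 180 shared regions of 2 kb or more across the genome it was 6.11%. The part that peak width and the joining of neighbouring peaks play in it was not tested.

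**Figure D3:**
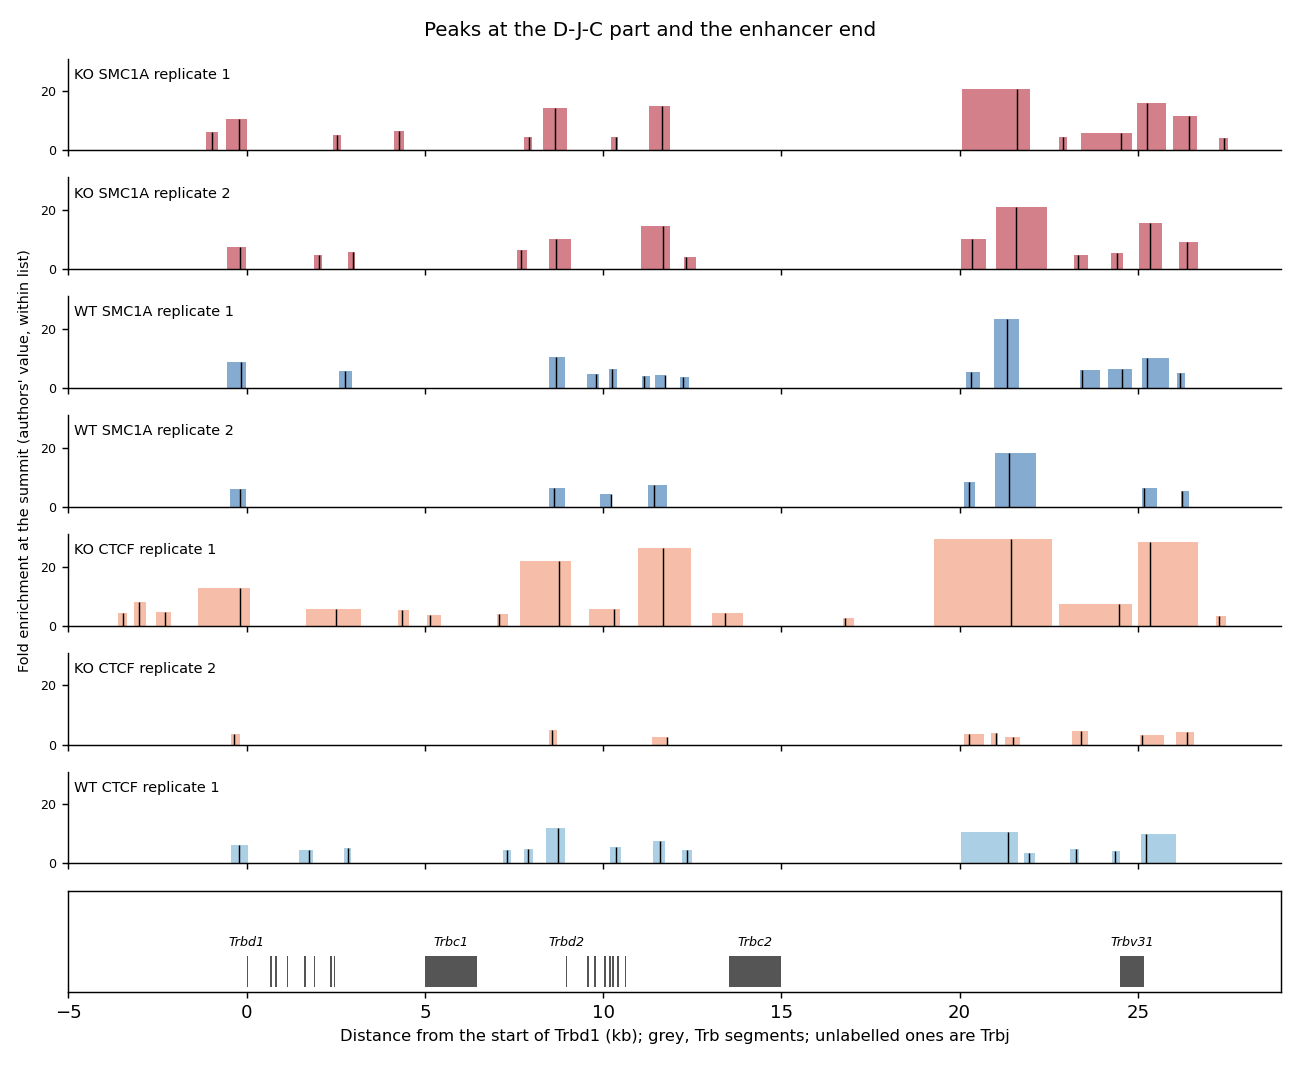
Extent (bars) and summit (black lines) of peaks from 5 kb before Trbd1 to past Trbv31, with the authors' fold enrichment as height, in each of the 7 lists. All 4 SMC1A lists have peaks just before Trbd1 and Trbd2, between the J2 cluster and Trbc2, and at the enhancer end, where the KO SMC1A summits lie to the right of the WT ones.

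Both D segments were preceded by cohesin and CTCF. The region at 41532613 to 41533200 ended at the base before Trbd1, where a germline promoter lies, and its folds were 10.4 and 7.54 in KO and 8.78 and 5.89 in WT. Its 4 summits fell within 35 bp of each other. The region at 41541527 to 41542308 reached over Trbd2, with folds of 14.2 and 10.3 in KO and 10.3 and 6.41 in WT, and its summits fell within 43 bp. CTCF was called at both sites in all 3 CTCF lists. At the Trbd1 site the CTCF folds were 12.7 and 3.44 in KO and 6.40 in WT, and at the Trbd2 site they were 22.0 and 4.85 in KO and 12.0 in WT. KO replicate 1 had a further SMC1A peak at 41532051 to 41532404, which no other SMC1A list held. In the 5 kb before Trbd1, KO CTCF replicate 1 alone had further CTCF peaks at 41529608 to 41529835, 41530033 to 41530367 and 41530676 to 41531073, with folds of 4.26, 7.92 and 4.61.

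Between the J2 cluster and Trbc2, the region at 41544276 to 41545070 had folds of 14.8 and 14.5 in KO and 4.36 and 7.53 in WT. It was a single peak of 595 and 791 bp in the KO lists and of 538 bp in WT replicate 2, and a pair of peaks of 200 and 280 bp in WT replicate 1. Ordered by −log10 q among the 11 shared regions of its own list, it was number 3 and number 3 in KO. In WT it was number 11 and number 3, so this order overlapped between genotypes. By place in the whole list its highest peak was within the top 12.6% and 9.39% in KO and the top 92.1% and 43.1% in WT. These places did not overlap, but no share across the genome was counted and no test was made at this region. The CTCF folds there were 26.3 and 2.41 in KO and 7.58 in WT. The WT value lay between those of the KO CTCF replicates. A weaker neighbour at 41545362 to 41545796 was held by KO replicate 2 and WT replicate 1.

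The remaining D-J-C regions were weak. The region at 41540788 to 41541200, between Trbc1 and Trbd2, was held by both KO SMC1A lists and neither WT one, with folds of 4.54 and 6.26 and −log10 q values of 3.30 and 5.97. CTCF was called there in KO replicate 1 and in WT. The region at 41535626 to 41536241, over and past Trbj1-7, was in both KO lists and WT replicate 1, with folds of 5.27 and 5.60 in KO and 5.64 in WT. The region at 41543119 to 41543617, in the J2 cluster, was in KO replicate 1 and both WT lists, with folds of 4.31 in KO and 6.28 and 4.37 in WT. Single SMC1A lists added 41535088 to 41535331 in KO replicate 2, 41537338 to 41537615 in KO replicate 1 and 41542754 to 41543099 in WT replicate 1. CTCF regions from Trbj1-4 to past Trbj1-7 (41534679 to 41536413), past Trbc1 (41540219 to 41540605) and in the J2 cluster (41542802 to 41543699) were in KO replicate 1 and WT but not in KO replicate 2. The CTCF region at 41537451 to 41537749 was in KO replicate 1 alone.

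Cohesin sites lay over and past Trbv31, the V segment that joins by inversion. A region over the segment at 41556409 to 41558034 was in both KO SMC1A lists and WT replicate 1, with folds at the highest summit of 5.64 and 5.38 in KO and 6.46 in WT. CTCF was called over parts of it in all 3 CTCF lists, with folds at the highest summit of 7.33 and 4.72 in KO and 4.88 in WT. Those CTCF summits lay at 41557660 and 41556606 in KO and at 41556453 in WT, so the folds are not from 1 site. At 41558187 to 41559066, across the end of Trbv31, the folds were 15.8 and 15.5 in KO and 10.2 and 6.37 in WT. Among the 11 shared regions this was number 2 in both KO lists and number 3 and number 7 in WT. The CTCF folds there were 28.4 and 3.37 in KO and 10.1 in WT. At 41559198 to 41559878 the folds were 11.6 and 9.04 in KO and 5.04 and 5.41 in WT, and the order was 7 and 6 in KO and 9 and 11 in WT. Both KO orders were nearer to the top than the WT ones in these 2 regions, and farther from it at 2 others, before Trbv12-1 and in Ephb6, so the direction was split. This order exists only among the 11 regions, so no share across the genome stands beside these counts, and no test was made. The region at 41555995 to 41556224 was in KO replicate 1 alone, as was the CTCF region at 41549938 to 41550235 near Trbc2.

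**Figure D4:**
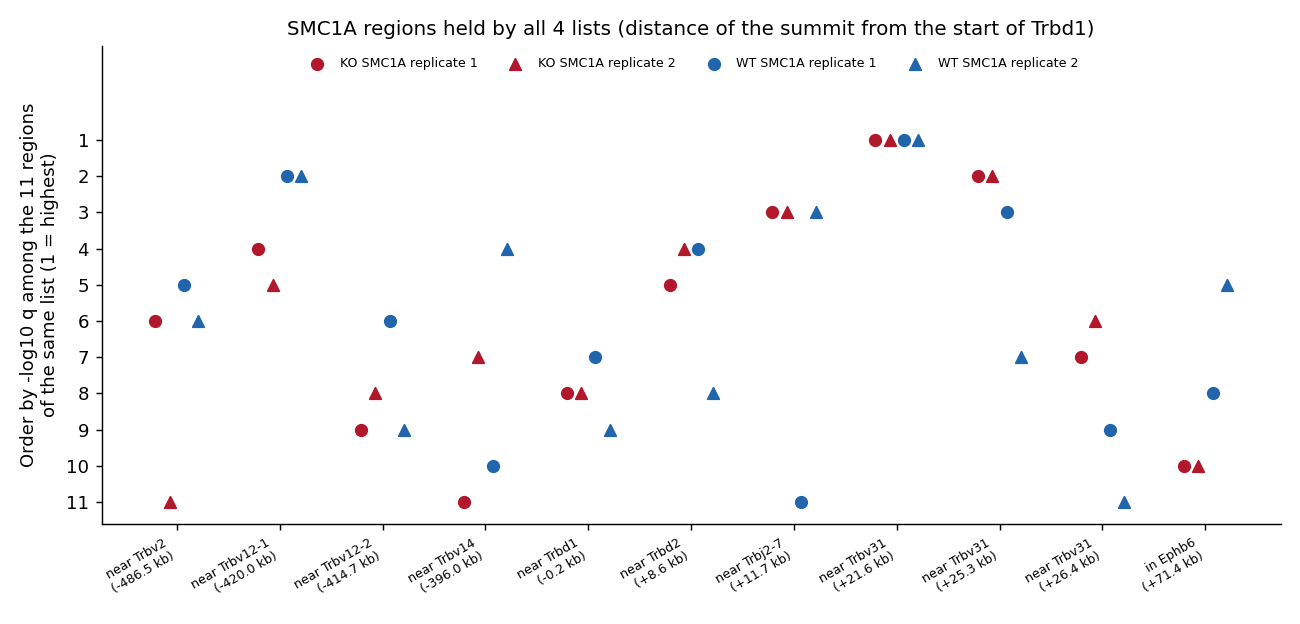
Order of the 11 SMC1A regions held by all 4 lists, by −log10 q within each list (1 is the highest; equal values share an order), from the V side (left) to Ephb6 (right). The enhancer-end region is first in every list, and the first region past Trbv31 is second in both KO lists.

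In the V array, cohesin sat beside a few segments on its Trbv2 side. The region at 41046491 to 41047261 lay before Trbv2, with folds of 9.61 and 5.69 in KO and 7.54 and 6.78 in WT. The region at 41112799 to 41113677, with its summits before Trbv12-1, had folds of 14.6 and 9.15 in KO and 13.2 and 10.5 in WT, and was the second strongest at the locus in both WT lists. The region at 41118198 to 41118874, with its summits before Trbv12-2, had folds of 10.5 and 7.54 in KO and 8.22 and 5.89 in WT. The region at 41136928 to 41137394 lay past Trbv14, with folds of 8.79 and 7.95 in KO and 5.02 and 7.24 in WT. At Trbv12-1 the order among the 11 shared regions was 4 and 5 in KO and 2 and 2 in WT. Trbv1, the segment farthest from the D-J-C part, had a region beside it at 40893497 to 40893973 in KO replicate 2 (fold 9.10) and both WT lists (5.94 and 5.40).

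The other region gained in KO lay at 41215890 to 41216203, at the start of Trbv23, with −log10 q values of 6.04 and 1.92 in the KO lists. Its peaks ranked in the lower part of both lists, at the top 62.1% and 97.1%. CTCF was called there in KO replicate 1 only.

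The segments with cohesin nearby were mostly ones that RefSeq does not class as pseudogenes. The table lists 35 Trbv segments, 22 as V segments and 13 as V pseudogenes. A summit within 5 kb was found for 13 and 13 segments in the KO SMC1A lists and 10 and 11 in the WT SMC1A lists. For 9 segments this held in all 4 SMC1A lists, and these were 9 of the 22 V segments and 0 of the 13 pseudogenes. In the CTCF lists the counts were 25 and 12 in KO and 13 in WT, and the 12 segments shared by all 3 were 11 V segments and 1 pseudogene. The classes were closer in KO CTCF replicate 1 alone, with 16 of the 22 V segments and 9 of the 13 pseudogenes. Within 10 kb that list had 18 of the 22 and all 13 pseudogenes. Segments shared by all lists of a mark numbered 4 for SMC1A and 4 for CTCF within 1 kb. Within 10 kb they were 12 for SMC1A, 2 of them pseudogenes, and 17 for CTCF, 3 of them pseudogenes. Neighbouring segments share peaks, so they are not independent, and the difference between the classes was not tested.

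The V array held 28 merged CTCF regions and 10 merged SMC1A regions. Of the 58 merged CTCF regions at the locus, 16 (27.6%) were in all 3 lists, beside 27.0% of 63947 across the genome. Sites of this kind with fewer SMC1A lists included 41055201 to 41056802 and 41061035 to 41061485 on either side of Trbv4, 41108722 to 41109711 near Trbv11 and 41194430 to 41194849 between Trbv20 and Trbv21. In the 5′ flank a site at 40817722 to 40818055, in the pseudogene Mgam2-ps, was in all 3 CTCF lists and in no SMC1A list. By −log10 q it was the strongest CTCF peak at the locus in KO replicate 2, though not by fold, with a fold of 5.05 and a −log10 q of 14.5. By −log10 q the strongest in the WT CTCF list was the site before Trbv12-1, with a fold of 15.8 and a −log10 q of 32.1.

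Of the 27 regions in the WT CTCF list, 4 (14.8%) were in neither KO list, and across the genome the share was 18.9%. They lay at 41045810 to 41046121 before Trbv2, at 41054870 to 41055069 between Trbv3 and Trbv4, at 41141903 to 41142102 past Trbv15 and at 41572921 to 41573269 between Trbv31 and Ephb6. All were weak, with −log10 q values between 4.00 and 4.61. No region of the 16 in both KO CTCF lists was absent from WT, where the share across the genome was 8.29%. These counts turn on the KO replicate. Without KO replicate 1, 18 regions were lost, and without KO replicate 2, 30 were gained. With 1 WT list, no test across samples was made.

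Most cohesin peaks of the locus lay on CTCF, by an amount that turned on the CTCF list. The shares that overlapped a merged CTCF peak were 24 of 26 and 21 of 21 in the KO SMC1A lists (92.3% and 100%; Wilson intervals 75.9 to 97.9% and 84.5 to 100%). In the WT SMC1A lists they were 20 of 20 and 15 of 15 (both 100%; 83.9 to 100% and 79.6 to 100%). Across the genome the same shares lay between 93.8% and 96.3% in the 4 lists. The mean difference at the locus was -3.85 percentage points (exact permutation p = 1.00). KO CTCF replicate 1 alone gave the same mean difference as the merged peaks, -3.85 percentage points. Against the WT CTCF list alone the numbers were 15 of 26 and 17 of 21 in KO and 16 of 20 and 14 of 15 in WT. The mean difference at the locus was -17.3 percentage points. Across the genome the shares on that list were 76.8% and 83.6% in KO and 87.9% and 85.3% in WT, so KO was lower there too. Against KO CTCF replicate 2 alone the locus numbers were 13 of 26 and 13 of 21 in KO and 13 of 20 and 12 of 15 in WT. The mean difference was -16.5 percentage points. The genome shares on that list were 56.7% and 66.3% in KO and 65.2% and 64.9% in WT, which overlapped. With 2 lists against 2, none of these differences could pass 0.05. The converse share was lower, since 43.4% and 72.7% of the KO CTCF peaks and 58.8% of the WT CTCF peaks overlapped an SMC1A peak. Across the genome these were 51.4% and 77.2% in KO and 62.4% in WT, each above the locus share.

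From 41263198 to 41526419 no list held a peak. This stretch of 263 kb begins at the Trbv30 end of the V array, with Trbv28 to Trbv30, and holds 8 protein-coding genes of the trypsinogen family, namely Try4, Try5, Try10, Prss3, Gm5771, Gm10334, Prss1 and Prss2. Of 67135 intervals between neighbouring peaks of the 7 lists across the genome, 1907 (2.84%) were as long, and the median was 5.83 kb. That share is by number of intervals and not by the length of genome they cover. It also sets the longest interval of the locus against all intervals, so it does not say how rare such a stretch is. The longest SMC1A-free stretch of the locus was 316 and 316 kb in KO and 395 and 395 kb in WT, and the region at Trbv23 sets that difference. Trypsinogen genes are near-identical copies, so reads there can map to several places. How far that limits peak calling was not tested.

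The RefSeq promoter table gives 15 promoters at the locus. It has none for a Trb segment and lacks some trypsinogen genes, so those promoters were not checked. Among the 15, the only one with a peak was that of Ephb6, which encodes an Eph-family receptor without kinase activity. The SMC1A region at 41604099 to 41606116 had folds of 7.69 and 5.89 in KO and 5.39 and 6.26 in WT. Its order among the 11 shared regions was 10 and 10 in KO and 8 and 5 in WT. Peaks of all 7 lists overlapped the promoter window, that of KO CTCF replicate 2 (41605445 to 41605844) only at its end. The SMC1A summits lay before the window, at 41604627 and 41604501 in KO and at 41604617 and 41604618 in WT. The 250 bases before the start given in the RefSeq promoter table are shown beside those of Prss2, the last promoter before Trbd1 and one with no peak. For Ephb6 that start lies inside the gene span of the gene table (41603834 to 41620509), so the window is within the gene and not before it. The first is chr6:41605261-41605510 and the second is chr6:41521526-41521775, both on the plus strand of GRCm38.p6, the assembly of mm10, and capitals mark CpG dinucleotides.
Ephb6: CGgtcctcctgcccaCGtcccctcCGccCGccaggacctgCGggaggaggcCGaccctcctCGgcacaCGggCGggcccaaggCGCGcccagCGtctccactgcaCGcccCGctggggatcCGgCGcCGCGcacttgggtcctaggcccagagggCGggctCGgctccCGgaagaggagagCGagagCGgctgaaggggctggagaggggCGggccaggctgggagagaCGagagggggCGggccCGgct
Prss2: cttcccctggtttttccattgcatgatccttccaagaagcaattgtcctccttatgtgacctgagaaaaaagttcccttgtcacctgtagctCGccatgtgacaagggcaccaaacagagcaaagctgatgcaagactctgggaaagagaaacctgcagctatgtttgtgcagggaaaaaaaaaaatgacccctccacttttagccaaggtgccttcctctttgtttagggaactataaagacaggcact
The Ephb6 window was 76.8% G and C with 27 CpGs, and the Prss2 window was 45.6% G and C with 1 CpG. The medians over all RefSeq promoters were 52.4% and 6. Both strands were searched for the core of the CTCF motif, taken as CCA, AG and GGC with 2 free bases between each. No match was found in any of these 15 promoters, and 2.43% of 32851 promoters hold one. No match says only that these letters are not in the window.

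Other receptor loci give a setting for these counts. Between Trbv1 and Trbv31 (667 kb) the SMC1A lists held 22 and 18 peaks in KO and 18 and 13 in WT. Across Tcra/Tcrd (1800 kb, chromosome 14) they held 66 and 25 in KO and 21 and 15 in WT, with 9 of 18 regions gained. Across Tcrg (174 kb, chromosome 13) they held 9 and 4 in KO and 0 and 1 in WT, with 3 of 4 regions gained. Between Trbv1 and Trbv31 the gained regions were 2 of 13, and across the genome the gained share was 13.1%. The differences between the loci were not tested.

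Genes that act on the locus or on its product were counted within 20 kb of 19 genes for recombination, end joining and receptor signalling. Of 71 SMC1A regions in both WT lists, 3 were lost, at Xrcc6, a DNA end-binding subunit, and at Cd3e and Cd247, which encode CD3 chains, beside 4.15% across the genome. Of 64 in both KO lists, 4 were gained, at Prkdc and Lig4, which act in end joining, and at Cd247 and Lcp2, a signalling adaptor, beside 13.1% across the genome. No SMC1A region was lost or gained at Rag1 or Rag2, the recombinase genes. For CTCF, 26 of 132 regions were lost, beside 18.9% across the genome. There 1 of 53 was gained, beside 8.29%, at Dntt, which adds bases at the joins. Neighbouring genes share regions, which are then counted for each gene.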

How the data were processed

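CUT&RUN was done on sorted DP thymocytes, per the labels' protocols. Per the submitters' processing notes the tools were Trimmomatic 1.24, Bowtie2, SAMtools, deepTools, MACS2 and R 4.12 on mm10. Settings and the control for calling peaks are not stated in these sources. The files are narrowPeak lists, 1 per library. The authors deposited a fold enrichment (ratio) at each summit with −log10 p and −log10 q values, and a display score that was not used. The summit offset was the other column used.

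The members and lists were chosen with earlier results of these data known. Peaks of a mark were merged by an overlap of 1 bp. Lost means in every WT list and no KO list, and gained means in both KO lists and no WT list. Peak numbers in windows of 850 kb with a mean of 5 or more were tested with limma 3.58.1 (R 4.3.3) on log2((peaks + 0.5) per 1000000 peaks of the list), with Benjamini-Hochberg adjustment. From the deposited fold and −log10 p, the pile-up of each peak was solved; it came out whole, within 0.001, in 99.0 to 99.9% of peaks. The highest q was 0.0498. Named regions are all those of the D-J-C part and enhancer end, all lost, gained or shared SMC1A and lost CTCF ones, and the 3 highest peaks per list. Some shared CTCF sites were named after their values were seen. Genes come from RefSeq (GRCm38.p6), and the table has no strand or exons, so exon and intron positions are not given. Python 3.11.15, pandas 2.3.3 and scipy 1.17.1 were used. The steps were tested on simulated data.

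Replicate numbers match the batch in the labels, so they pair the samples by batch. The main limma fit and the permutation tests did not use this pairing. Only the replicate block, an alternative, did. Over 1364 windows the deviations of same-numbered SMC1A lists were correlated at 0.045. The alternatives tried were lists of equal length, a −log10 q of 5 or more, overlap of 0.5 of the shorter peak, summits within 200 bp, other window settings, V distances of 1 and 10 kb, each list left out, and the replicate block.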

Additional observations from a re-analysis of the deposited data

How the results depend on the processing

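The log2 density difference at the locus, KO minus WT, was 0.17 and ran from -0.06 (without WT replicate 2) to 0.40 with 1 SMC1A list left out. With the replicate block it was 0.17 (limma adjusted p = 0.665), and over all alternatives the adjusted p ran from 0.374 to 0.945. The difference per 1000 peaks was 0.103 and ran from -0.0366 (without WT replicate 2) to 0.242 with 1 list left out. Over all windows limma called 80, 36 with the replicate block and 26 to 51 with 1 list left out. With −log10 q of 5 or more it called 26. With lists of equal length it called 0 windows (215 at an unadjusted p under 0.05), and with lists centred on their median window also 0 (244 unadjusted).

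SMC1A regions lost numbered 0, and 1 with lists of equal length, with summits within 200 bp and with any 1 list left out (1 to 1). By summits the lost region is the enhancer-end one (41554178 to 41555336), which is then also counted as gained beside the one at Trbv23. Regions gained numbered 2, against 1 with −log10 q of 5 or more (41559198 to 41559878, past Trbv31, which is neither of the 2), 0 with equal lists, 1 (at Trbv23) with an overlap of 0.5, and 2 to 12 with 1 list left out, the 12 without KO replicate 2. CTCF regions lost numbered 4, against 0 with −log10 q of 5 or more, 2 with equal lists, 12 by summits and 4 to 18 with 1 KO list left out. CTCF regions gained numbered 0, against 1, 3 and 1 to 30 under the −log10 q of 5, the equal lists and a KO list left out. V segments with a summit in all lists numbered 4 (SMC1A) and 4 (CTCF) within 1 kb and 12 and 17 within 10 kb. The difference in the share of SMC1A peaks at CTCF ran from -17.3 to 0 points. With 2 lists against 2, its exact test cannot pass 0.05 under any alternative. The number of lists that hold a named SMC1A region moved for 10 of 18 at −log10 q of 5 or more. The cause of these changes was not tested. With 2 lists a group and pile-ups as low as 6 reads, weak regions such as the gained ones are near the limit of calling.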
